A study of Mus musculus with 20 samples.

Results

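The 10 genes described here encode the FOS proteins (Fos, Fosb, Fosl1, Fosl2), the JUN proteins (Jun, Junb, Jund) and the small MAF proteins (Maff, Mafk, Mafg). They were chosen by family membership through the gene name of each probe, and all 10 were found among the 27827 gene names on the array. Whole-kidney RNA of male C57BL/6 mice, 8 to 12 weeks old by the study's methods, was hybridised to 20 one-colour Agilent arrays, 4 in each of 5 groups. Control mice had no ischemia and no drug. IRI mice (ischemia and reperfusion injury) had both renal pedicles clamped for 45 min, and kidneys were taken after 6 h of reperfusion. IRI+Hemin mice received 25 mg/kg of Hemin, an inducer of heme oxygenase-1, intraperitoneally 24 h before the same injury. IPC+IRI mice had 15 min of ischemia, an ischemic preconditioning (IPC), 7 days before it. Hemin mice received the drug alone at the same dose, and the time from drug to kidney removal is not stated for them. The labels give no surgery for Control and Hemin and name no sham-operated or vehicle group, and whether Control mice were injected is not stated. Nothing states that each array came from a separate animal, so the p-values measure the spread between arrays. Every group occupied a different slide, and effects of slide and of treatment cannot be told apart. Control and IRI were scanned on the same day, as were IPC+IRI and Hemin, and in the comparisons across days scan day and group cannot be told apart either. With 4 arrays a group, precision is set by their number.

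FOS and JUN proteins are basic leucine zipper transcription factors that pair with each other, and with some ATF proteins, to form the dimers known as AP-1. Fos, Fosb, Jun and Junb are classical immediate-early genes, switched on by growth factors, stress and injury without new protein synthesis, whereas Fosl1 and Fosl2 are usually induced later and encode proteins that lack the strong activation domain of FOS. The small MAF proteins have a leucine zipper but no activation domain. They pair with NRF2 and related CNC factors to activate antioxidant genes at antioxidant response elements, and with BACH1, a repressor whose DNA binding is released by heme, to silence the same genes.

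Promoter sequences are shown for 5 members because the sequences to which AP-1, CREB and small MAF heterodimers bind can be read in them. RefSeq windows on GRCm38.p6, from 250 bases before to 50 after a transcription start, were held for 9 of the 10 members, in 11 windows of 32851 in all, with 3 starts for Maff and none for Fosl1. The last 120 bases before the start are given 5′ to 3′ on the gene's strand, and capitals mark a match on either strand to 1 of the motifs searched.

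Fos (chr12:85473770-85473889, + strand): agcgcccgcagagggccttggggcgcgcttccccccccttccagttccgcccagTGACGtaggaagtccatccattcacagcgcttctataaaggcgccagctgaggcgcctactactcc

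Jun (chr4:95052223-95052342, - strand): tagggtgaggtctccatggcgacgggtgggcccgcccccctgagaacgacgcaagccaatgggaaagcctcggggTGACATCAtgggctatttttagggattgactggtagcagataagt

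Maff, second start (chr15:79347400-79347519, + strand): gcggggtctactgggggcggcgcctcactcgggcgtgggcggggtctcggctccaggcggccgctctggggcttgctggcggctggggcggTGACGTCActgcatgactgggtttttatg

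Mafk (chr5:139791416-139791535, + strand): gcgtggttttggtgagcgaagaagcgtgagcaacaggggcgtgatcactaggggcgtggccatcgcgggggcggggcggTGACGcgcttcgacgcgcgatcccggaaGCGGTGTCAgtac

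Mafg (chr11:120633548-120633667, - strand): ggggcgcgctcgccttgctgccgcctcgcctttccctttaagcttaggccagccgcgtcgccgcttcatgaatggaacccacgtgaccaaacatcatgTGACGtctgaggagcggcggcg

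The cAMP response element TGACGTCA lay 29 bases before the second Maff start, and 1.79% of all windows held it. Its core TGACG, which the full element contains, was found in 7 of the 11 member windows and in 20.8% of all windows. The variant AP-1 site TGACATCA lay 45 bases before the Jun start, where JUN and ATF2 dimers are known to bind, and was found in 2 member windows and in 3.62% of all windows. The antioxidant response element core TGACNNNGC, the site of NRF2 and small MAF dimers, was found in 3 member windows (1 each of Maff, Mafk and Mafg) and in 12.4% of all windows. The AP-1 site TGACTCA, held by 5.2% of all windows, and the CArG box of serum response factor, held by 1.63%, had no match in the member windows. These are matches of letters and not measured binding sites, and sites more than 250 bases before a start were not searched.

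Each value below is a log2 level, the log2 of a gene's background-subtracted signal divided by the 75th percentile of its array, so that 0 marks that percentile. Levels of different genes were not set against each other. Differences were tested with limma over the genes well above background in at least 3 of the 4 arrays of a compared group, and a gene was called where its p adjusted over all those genes was below 0.05. The 11 kidney tubule markers, among them Lrp2, Slc34a1 and Umod, were well above background on every array. Of the 11 leukocyte markers on the array, 9 were well above background on every Control array and 9, not all the same genes, on every IRI array. The summed linear level of all 11 was 4.06 to 5.85 in Control, 6.92 to 12.8 in IRI, 8.36 to 17.3 in IRI+Hemin, 12.1 to 40.1 in IPC+IRI and 4.70 to 6.66 in Hemin. In whole tissue, a change in the number of cells of a type and a change of RNA per cell cannot be told apart. The leukocyte signal moved with the injury as most members did, and its part in the results was not tested.

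Nearly the whole set was higher after injury. In IRI vs Control, 9 of the 10 members were called higher and none lower, where 17.1% of the 17719 genes tested were called higher and 33.9% lower. The median difference of the members was 2.79 on the log2 scale, and that of all genes was -0.17. Mafg was the member not called. All 10 members were called higher in IPC+IRI vs Control, against 23.2% of all genes, with a median difference of 2.46. All 10 were also higher in IRI+Hemin vs Control, against 24.4% of all genes, with a median of 1.85. These comparisons share the 4 Control arrays. When a rise of at least 4-fold was also asked for in IPC+IRI vs Control, 7 of the 10 passed, without Jund, Mafk and Mafg. When a rise of at least 3-fold was asked for in IRI+Hemin vs Control, 5 passed, without Fosl2, Jun, Jund, Mafk and Mafg. SAM, the permutation-based test that the study's methods name, was rerun here on the scaled data, and the exact setting the study used is not known. The rerun called 6 in the first of these comparisons, without Fos, Fosb, Jund and Mafg. It called 5 in the second, without Fos, Fosb, Jun, Jund and Mafg. The study's own list for IPC+IRI vs Control names Fos and Fosb among its up-regulated genes. Against Hemin alone, 9 members were higher in IRI, again without Mafg, where 20.4% of all genes were called higher. All 10 were higher in IRI+Hemin vs Hemin (16.5% of all genes) and in IPC+IRI vs Hemin (13.2%). SAM called 7 in IRI+Hemin vs Hemin, without Fosb, Jund and Mafg, and 8 in IPC+IRI vs Hemin, without Fosb and Mafg. Mafg was lost in both without normalization between arrays and with the deposited log2 table. With normexp background correction Fosb was lost in IRI+Hemin vs Hemin and Mafg in IPC+IRI vs Hemin. Fosl1 was well above background on at most 1 array of Control or Hemin and entered all 6 of these comparisons through the injured group alone. When only genes well above background on all 8 arrays compared were tested, which left Fosl1 out, the counts were 8 against Control and 8 against Hemin for IRI, and 9 in each of the other comparisons. Fosb was no longer called in IRI+Hemin vs Hemin, leaving 9, without IRI+Hemin replicate 4 or Hemin replicate 4.

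**Figure D1:**
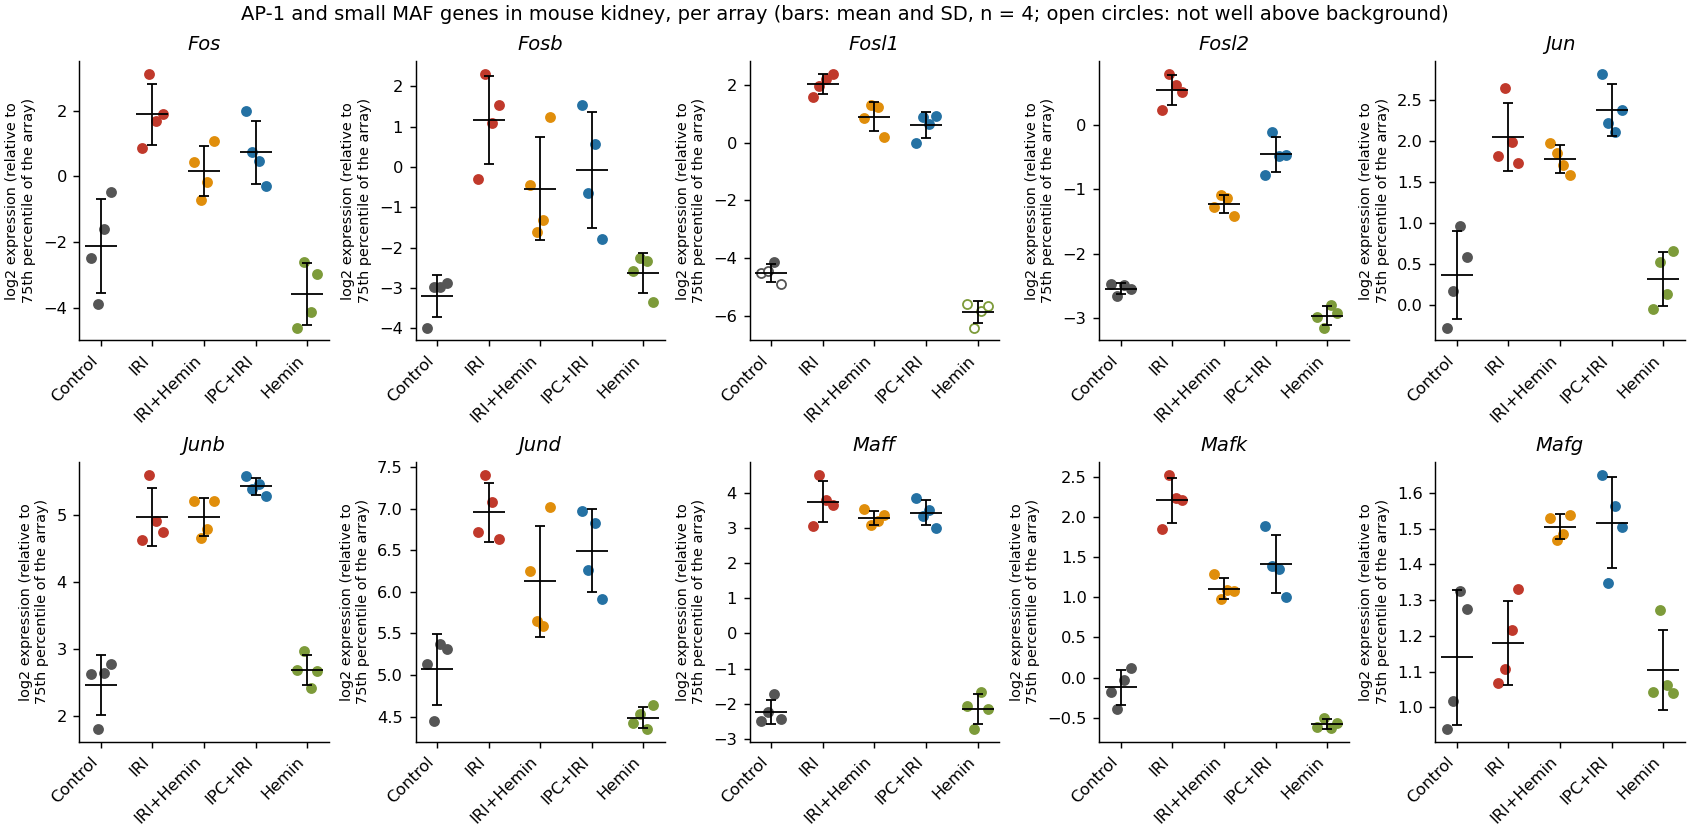
Log2 level (signal over the array's 75th percentile) of the 10 members on each of the 20 arrays, by group. Bars show the mean ± SD of 4 arrays, and open circles are arrays on which the gene was not well above background. The 3 injured groups lie above Control and Hemin for every member but Mafg, except for Fos, for which the Control and IRI+Hemin arrays overlap.

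Fosl1 (NM_010235, probe at mm9 chr19:5455496-5455555), which encodes FRA1, rose from a level near background in Control. Its log2 levels were -4.53, -4.46, -4.14 and -4.90 in Control and 1.59, 1.98, 2.21 and 2.39 in IRI. It was well above background on only 1 Control array and on all 4 IRI arrays, and the groups lay far apart. The means differed by 6.55 on the log2 scale, and by 3.63 with normexp background correction. This size rests on the low Control signal, so no p is given for it here. In the Hemin group the 4 values, -5.58, -6.42, -5.83 and -5.66, were all not well above background. Since 3 Control arrays, at -4.90 to -4.46, were also not well above background, no fold is given against Hemin. Every injured array lay above all Hemin and Control arrays.

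Fosl2, encoding FRA2, was the member with the tightest replicates among the FOS genes. Its log2 levels were -2.46, -2.66, -2.48 and -2.54 in Control and 0.23, 0.79, 0.62 and 0.51 in IRI. They were -1.28, -1.09, -1.13 and -1.41 in IRI+Hemin, -0.77, -0.11, -0.48 and -0.47 in IPC+IRI, and -2.98, -3.14, -2.79 and -2.92 in Hemin. No array of any group reached into another group. The order was IRI, IPC+IRI, IRI+Hemin, Control and Hemin, and it was the single member for which every neighbouring pair in the order was called. IRI vs Control gave 3.07 ± 0.14 (SE, 8.42-fold, adjusted p = 5.63e-11), which became 1.80 with normexp and 2.31 with the mean of the log2 values of both probes, both still called.

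Fos (NM_010234, probe at mm9 chr12:86817900-86817959) and Fosb (NM_008036, probe at mm9 chr7:19888477-19888536), the rapid-response members of the family, rose strongly but varied between arrays of a group. Fos stood at -2.50, -3.89, -1.61 and -0.48 in Control and at 0.87, 3.13, 1.69 and 1.90 in IRI. The groups did not overlap, although the Control arrays alone spanned more than 3 log2 units. The difference was 4.01 ± 0.67 (SE, adjusted p = 9.09e-05). Fosb ranged from -3.99 to -2.88 in Control and from -0.30 to 2.31 in IRI, a difference of 4.37 ± 0.68 (SE, adjusted p = 4.35e-05). With normexp the differences were 2.73 for Fos and 2.79 for Fosb, both still called, and without Control replicate 2 that of Fos was 3.42. In IRI+Hemin, Fos ranged from -0.71 to 1.07, so that its lowest array fell below the highest Control array, and the difference of 2.27 from Control was called all the same (adjusted p = 0.00791). It was 1.68 without Control replicate 2.

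The 3 JUN genes rose as well. Jun (NM_010591, probe at mm9 chr4:94715864-94715923), the founding member and main partner of FOS, had log2 levels of -0.28, 0.16, 0.96 and 0.59 in Control and 1.82, 2.66, 1.99 and 1.74 in IRI. The groups did not overlap, and the difference was 1.70 ± 0.25 (SE, adjusted p = 2.68e-05). Junb, whose product can oppose JUN on some promoters, stood at 2.63, 1.81, 2.64 and 2.77 in Control and at 4.62, 5.60, 4.91 and 4.74 in IRI. It rose by 2.50 ± 0.22 (SE, adjusted p = 1.09e-07). Jund (NM_010592, probe at chr8:73224436-73224495), which is expressed in many resting cells, rose from a range of 4.45 to 5.37 to one of 6.63 to 7.41, by 1.89 ± 0.30 (SE, adjusted p = 4.97e-05).

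The 3 small MAF genes behaved differently from one another. Maff (NM_010755, probe at mm9 chr15:79189442-79189501), the stress-inducible member, stood at -2.50, -2.24, -1.73 and -2.44 in Control and at 3.07, 4.52, 3.79 and 3.65 in IRI. The groups were separated by more than 4 log2 units at their nearest arrays, and the difference was 5.98 ± 0.27 (SE, 63.3-fold, adjusted p = 5.63e-11), or 4.66 with normexp. Mafk (NM_010757, probe at mm9 chr5:140278320-140278379) stood at -0.18, -0.40, -0.03 and 0.11 in Control and at 1.86, 2.53, 2.24 and 2.21 in IRI, a rise of 2.33 ± 0.16 (SE, adjusted p = 9.38e-09). Mafg stood at 0.94, 1.02, 1.33 and 1.27 in Control and at 1.07, 1.11, 1.22 and 1.33 in IRI. These 2 groups overlapped throughout, with a difference of 0.04 (95% interval -0.18 to 0.26, adjusted p = 0.769).

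Hemin given before injury was followed by lower levels of 6 members than injury alone, Fos, Fosb, Fosl1, Fosl2, Jund and Mafk, against 18.1% of all genes called lower. One member, Mafg, was called higher, against 26.3% of all genes. In IPC+IRI vs IRI, 3 members were called lower, Fosl1, Fosl2 and Mafk, against 17.8% of all genes, and Mafg was again called higher, against 26.3%. The median difference of the members was -0.97 in IRI+Hemin vs IRI and -0.63 in IPC+IRI vs IRI, and the medians of all genes were 0.08 and 0.09. Both comparisons share the 4 IRI arrays. When a fall of at least 2-fold was also asked for in IRI+Hemin vs IRI, the 5 members Fos, Fosb, Fosl1, Fosl2 and Mafk passed. None passed in IPC+IRI vs IRI, where the cutoff used was 3-fold and the falls of Fosl1 and Fosl2 were 2.69-fold and 1.99-fold, so these 2 counts are not comparable. Fosl1, Fosl2 and Mafk were the members called lower under both treatments. Without normalization between arrays, Fosl2 (-0.68) and Mafk (-0.48) were not called in IPC+IRI vs IRI, and Junb was. In IRI+Hemin vs IRI the same setting lost Fos, Fosb, Fosl1 and Jund, and 3 members remained called, Fosl2, Mafk and Mafg.

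**Figure D2:**
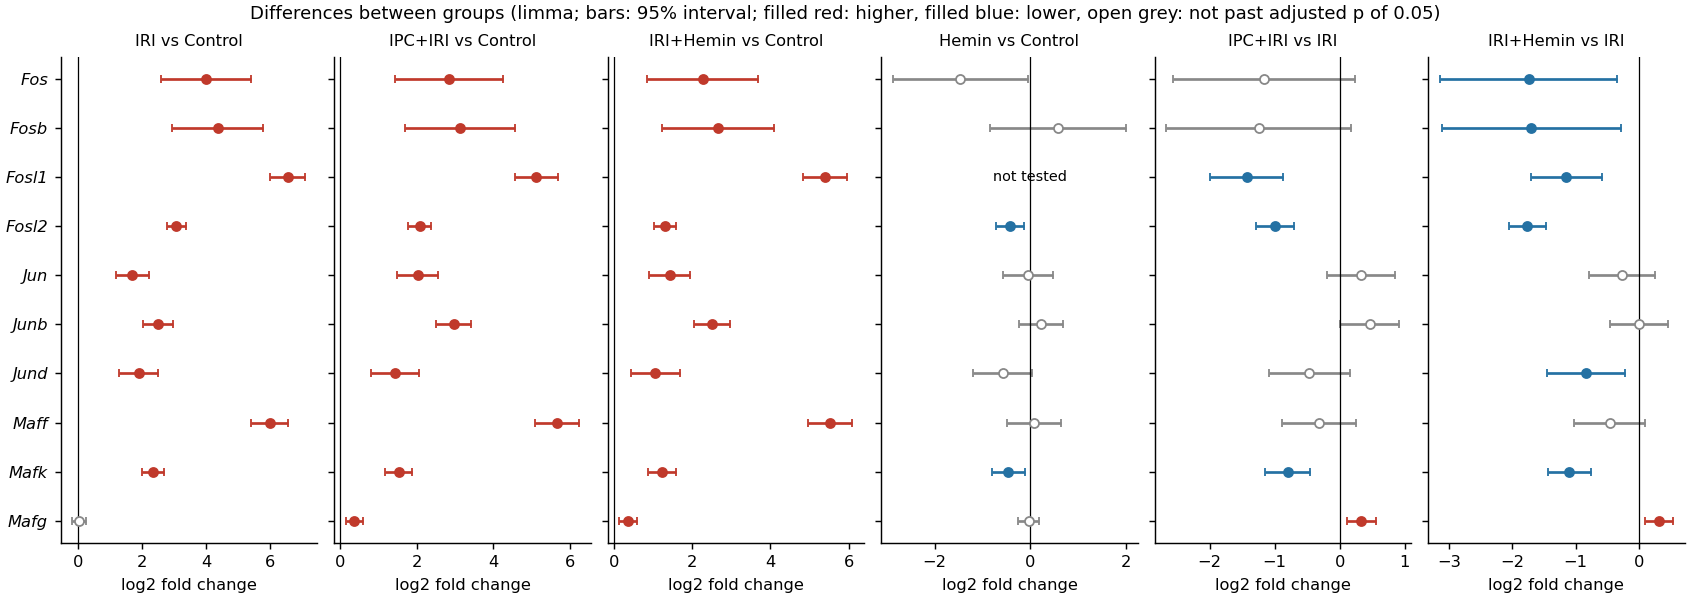
Difference between group means (log2) of each member in 6 comparisons, with 95% intervals from limma, in which filled points were called at an adjusted p below 0.05. Fosl2 lies below 0 in both IRI+Hemin vs IRI (-1.76) and IPC+IRI vs IRI (-0.996), while the intervals of Jun, Junb and Maff include 0 in IRI+Hemin vs IRI.

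Fosl2 was lower than IRI under both treatments, and with Hemin it was called in all 24 alternatives run. It was 3.40-fold lower in IRI+Hemin than in IRI (-1.76 ± 0.14, SE, adjusted p = 3.12e-07) and 1.99-fold lower in IPC+IRI (-0.996 ± 0.138, SE, adjusted p = 3.39e-05). It was also the one member called in IPC+IRI vs IRI+Hemin, where it was 1.70-fold higher after preconditioning (0.77, adjusted p = 0.00254) and where 6.43% of all genes were called higher. Fosl1 was lower by similar amounts under both treatments. Its log2 levels of 0.84, 1.30, 1.24 and 0.20 in IRI+Hemin and -0.02, 0.89, 0.66 and 0.91 in IPC+IRI all lay below the IRI arrays. It fell by 1.15 ± 0.27 (SE, adjusted p = 0.00220) with Hemin and by 1.43 ± 0.27 (SE, adjusted p = 0.000399) with preconditioning, and the difference between the 2 treated groups was -0.28 (95% interval -0.84 to 0.28, adjusted p = 0.514).

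Mafk followed Fosl2 in direction. It stood at 1.29, 0.98, 1.09 and 1.07 in IRI+Hemin, below all IRI arrays, and at 1.89, 1.40, 1.36 and 1.01 in IPC+IRI, where the highest array lay just above the lowest IRI array. It fell by 1.10 ± 0.16 (SE, adjusted p = 6.30e-05) with Hemin and by 0.80 ± 0.16 (SE, adjusted p = 0.000906) with preconditioning.

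The lower levels of Fos, Fosb and Jund in IRI+Hemin were less secure. Fos stood at 0.42, -0.71, -0.17 and 1.07, and 1 of these arrays lay above the lowest IRI array. Its difference was -1.74 ± 0.67 (SE, adjusted p = 0.0420), that of Fosb -1.70 ± 0.68 (SE, adjusted p = 0.0493) and that of Jund -0.83 ± 0.30 (SE, adjusted p = 0.0294), and in all 3 genes the groups overlapped. Fosb was -2.29 without IRI+Hemin replicate 4. Without IRI replicate 2 or 3, or without IRI+Hemin replicate 2 or 3, none of the 3 was called and 4 of the 10 members remained. Without IRI replicate 4 or IRI+Hemin replicate 1, Fos and Fosb were lost and 5 remained. Without IRI replicate 1, Mafg was lost and Maff gained. In IPC+IRI vs IRI the differences of Fos (-1.16, adjusted p = 0.167), Fosb (-1.24, adjusted p = 0.144) and Jund (-0.46, adjusted p = 0.213) were not called, but Fosb was once IPC+IRI replicate 1 was left out, and Junb was once IRI replicate 2 was left out, for 5 members each time.

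Maff, Jun and Junb were not called against IRI under either treatment. Maff stood at 3.53, 3.09, 3.19 and 3.36 in IRI+Hemin and at 3.86, 3.36, 3.52 and 3.00 in IPC+IRI, within or just below the IRI range. Its difference was -0.46 with Hemin (95% interval -1.03 to 0.11) and -0.32 with preconditioning (-0.89 to 0.25). Junb ranged from 4.66 to 5.21 in IRI+Hemin, with a difference of 0.00 from IRI (95% interval -0.46 to 0.46). Both Jun and Junb had their highest mean in IPC+IRI. Their IPC+IRI arrays, 2.11 to 2.83 for Jun and 5.29 to 5.58 for Junb, all lay above the IRI+Hemin arrays, 1.59 to 1.98 and 4.66 to 5.21. The arrays of these groups did not overlap for 16.7% of all genes tested. Without overlap, 4 against 4 arrays always give the smallest p that a two-sided exact permutation test allows, 0.0286. The differences of 0.60 for Jun and 0.46 for Junb had adjusted p = 0.123 and 0.174 in limma and were not called.

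Mafg was called higher than Control and than IRI in both groups in which a treatment preceded the injury. It stood at 1.53, 1.47, 1.48 and 1.54 in IRI+Hemin and at 1.65, 1.35, 1.56 and 1.51 in IPC+IRI, above every IRI array. The differences from IRI were 0.32 ± 0.10 (SE, 1.25-fold, adjusted p = 0.0170) and 0.34 ± 0.10 (SE, 1.26-fold, adjusted p = 0.0141). In Hemin alone it stood at 1.04, 1.27, 1.06 and 1.04, overlapping with Control (difference -0.03, adjusted p = 0.820). Both rises rested on 1 of the 2 Mafg probes and were not called when the log2 values of both probes were averaged or when the deposited log2 table was used. The call of Mafg in IRI+Hemin vs Control was also lost in both cases. That in IPC+IRI vs Control was lost with the deposited table. The other probe gave 0.03 in IRI+Hemin vs Control (adjusted p = 0.897) and 0.17 in IPC+IRI vs Control (adjusted p = 0.378).

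In Hemin vs Control, 2 of the 9 tested members, Fosl2 and Mafk, were called lower, near the 17.6% of all genes called lower. None was called higher, against 18.5% of all genes. Fosl2 was 1.34-fold lower (-0.42 ± 0.14, SE, adjusted p = 0.0240). This rested on probe A_52_P484903 (-0.52, adjusted p = 0.0189), while A_51_P507242 gave -0.01 (adjusted p = 0.965), and Fosl2 was not called with the mean of the log2 values of both probes (-0.27, adjusted p = 0.120). Mafk was 1.37-fold lower (-0.46 ± 0.17, SE, adjusted p = 0.0378), with Hemin arrays at -0.62, -0.50, -0.63 and -0.57, below every Control array. The count depended on single arrays. It was 0 without Control replicate 1 or 3 or Hemin replicate 1 or 2, 1 (Fosl2) without Control replicate 4 or Hemin replicate 3 or 4, and 4 without Control replicate 2, when Fos and Jund were added. Both genes turned to 0.14 and 0.11 above Control without scaling between arrays, where the median of all genes shifted from 0.06 to 0.62. Under that setting Fosl2 and Mafk were not called, and Junb was called higher. Fos had the largest measured difference, -1.47 (95% interval -2.88 to -0.06, adjusted p = 0.0949), with overlapping arrays. It was -2.06 without Control replicate 2. Fosl1 was not tested here, since it was measured on too few arrays of both groups.

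Whether the response to injury differed with Hemin was tested as an interaction, the difference of IRI+Hemin vs Hemin from IRI vs Control. Fosl2 was the one member called, at -1.34 ± 0.20 (SE, 95% interval -1.75 to -0.93, adjusted p = 0.000491), where 1.96% of the 19064 genes tested were called lower. Its rise was 3.07 without Hemin and 1.73 with it. The interaction of Mafk was -0.64 (adjusted p = 0.106), and that of Fosb was -2.27 with a wide interval of -4.30 to -0.25 (adjusted p = 0.166). Over the alternatives run, that of Fosb was -2.87 to -1.67 and never called. No interaction is given for Fosl1, which was not well above background on any Hemin array. Fosl2 was still called without any one of the 16 arrays of these groups.

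Fosl2, Junb and Mafg were each read by a pair of 60-base probes, whose first 30 bases are shown because the probes of Fosl2 and Mafg differed in their readings. The capitals in the Junb line mark the 22 bases it shares with the other Junb probe, so these 2 probes are not separate targets.

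Fosl2 probe A_52_P484903: ttgaggaagaaaatattcagctttgtataa

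Fosl2 probe A_51_P507242: gattgctgagctgcagaaggagaaggagaa

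Mafg probe A_52_P240754: acgttgggatcagccagttcaacagtgatg

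Mafg probe A_52_P596112: aggagtagtaggtctttgcttctgaacagg

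Junb probe A_51_P159194: TTCGTGTCTAAAGTCTATTTTAagatgtgt

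On mm9 the Fosl2 probes lay on chromosome 5 at 32459624 to 32459683 and at 32455088 to 32455147, both annotated to NM_008037. The first gave 3.23 in IRI vs Control, -1.84 in IRI+Hemin vs IRI and -1.04 in IPC+IRI vs IRI, all called. The second moved the same way by less, with 1.38 (adjusted p = 5.89e-05), -0.66 (adjusted p = 0.0209) and -0.24 (adjusted p = 0.391). Its interaction was -0.64 (adjusted p = 0.233), against -1.32 (adjusted p = 0.00208) for the first. In IPC+IRI vs IRI+Hemin the first gave 0.80 (adjusted p = 0.00576) and the second 0.42 (adjusted p = 0.220), not called. The Mafg probes lay on chromosome 11 at 120490341 to 120490400, annotated to NM_010756, and at 120488059 to 120488118, annotated to the transcript AK038934. The NM_010756 probe was higher by 0.47 in IRI+Hemin (adjusted p = 0.00114) and by 0.44 in IPC+IRI (adjusted p = 0.00168) than in IRI. The AK038934 probe gave -0.13 (adjusted p = 0.529) and 0.01 (adjusted p = 0.949). The Junb probes gave 2.20 and 2.81 in IRI vs Control, and one of them was called higher in IPC+IRI vs IRI (0.54, adjusted p = 0.0457) while the other gave 0.39 (adjusted p = 0.182). Fos and Jun were read by 10 spots of 1 probe on each array. The SD between those spots within an array was 0.051 to 0.267 for Fos and 0.040 to 0.098 for Jun. These repeats of 1 probe do not measure the spread between arrays, which was an SD of 1.44 for Fos in Control.

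**Figure D3:**
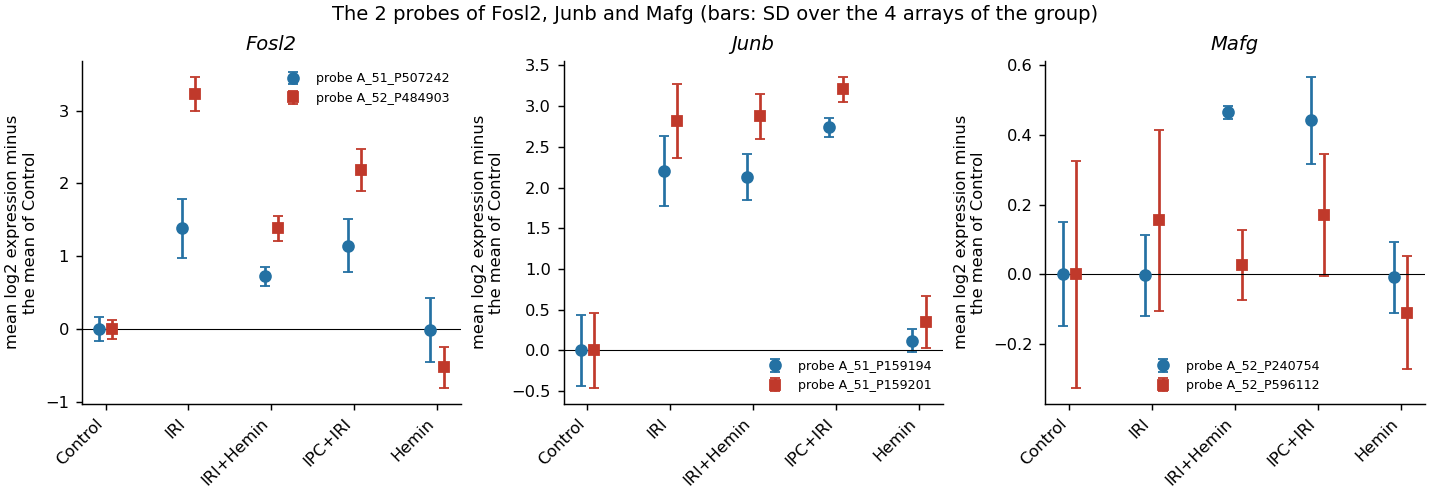
Mean log2 level of each group minus the Control mean for both probes of Fosl2, Junb and Mafg. The Mafg probes part in IRI+Hemin and IPC+IRI, where the NM_010756 probe is higher than in IRI by 0.47 and 0.44 and the other probe is not, and the Fosl2 probes differ in size but share their direction in the injured groups.

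The counts that follow stand beside the shares of all genes, which were 17.1% higher and 33.9% lower in IRI vs Control, 26.3% and 18.1% in IRI+Hemin vs IRI, and 26.3% and 17.8% in IPC+IRI vs IRI. Among the partners of AP-1, 6 of 10 ATF, BATF and JDP genes rose in IRI vs Control and none fell, with a median difference of 0.94. Atf3, a stress-induced factor that pairs with JUN, rose by 5.57 (adjusted p = 6.92e-07) and differed from IRI by 0.12 in both IRI+Hemin (adjusted p = 0.882) and IPC+IRI (adjusted p = 0.887). Atf4, of the integrated stress response, rose by 2.40 and fell by 0.79 in IRI+Hemin vs IRI (adjusted p = 0.00746). In this list 3 genes fell and none rose in IRI+Hemin vs IRI, and 3 fell and 1 rose in IPC+IRI vs IRI.

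Among the CNC and BACH partners of the small MAF proteins, 3 of 5 tested genes rose in IRI vs Control and 1 fell. Bach1 rose by 1.07 in IRI vs Control (adjusted p = 0.00709). It stood higher still than IRI in IRI+Hemin (1.72, adjusted p = 0.000249) and in IPC+IRI (1.51, adjusted p = 0.000730), where 26.3% of all genes were called higher each time. Nfe2l2, encoding NRF2, rose by 0.62 (adjusted p = 0.00266) and was lower in IPC+IRI than in IRI (-0.64, adjusted p = 0.00272), while in IRI+Hemin the difference was -0.09 (adjusted p = 0.667). Of the large MAF genes 2 were tested, and Maf fell in IRI vs Control (-1.79, adjusted p = 1.46e-06).

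Of 21 kinases upstream of AP-1, 7 rose and 1 fell in IRI vs Control, with a median of 0.04. Map2k3, which activates p38, rose by 2.07 (adjusted p = 7.32e-09) and was lower in IRI+Hemin than in IRI (-0.75, adjusted p = 0.000477). In IRI+Hemin vs IRI 7 kinases fell, against 18.1% of all genes, and 1 rose, and in IPC+IRI vs IRI 9 fell, against 17.8%, and 3 rose, against 26.3%. Of 6 tested genes among serum response factor, its ELK and MKL cofactors and Creb1, which binds the cAMP response element, 3 rose and 2 fell in IRI vs Control. Srf rose by 0.77 (adjusted p = 0.00219), and Creb1 fell by 0.59 (adjusted p = 0.00606) and was higher than IRI in IRI+Hemin (1.08, adjusted p = 7.07e-05) and IPC+IRI (1.06, adjusted p = 8.49e-05).

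Of 19 tested AP-1 target genes, 16 rose in IRI vs Control, against 17.1% of all genes, and 1 fell, Ccnd1, with a median of 2.55. In Hemin vs Control, which has no injured arrays, 17 were tested, so some of the 19 may have entered through the IRI arrays alone. No target rose against IRI in the treated groups, where 8 fell with Hemin and 7 with preconditioning. Plaur, the urokinase receptor, rose by 4.71 (adjusted p = 1.41e-10) and fell by 1.07 in IRI+Hemin vs IRI (adjusted p = 0.00106) and by 1.28 in IPC+IRI vs IRI (adjusted p = 0.000256). Ccl2, a monocyte chemokine, rose by 4.83 and fell by 2.06 (adjusted p = 0.00146) and by 1.86 (adjusted p = 0.00321) in the same comparisons. Of 14 tested targets of small MAF and NRF2 dimers, 8 rose in IRI vs Control and none fell, with a median of 0.57. Hmox1, encoding heme oxygenase-1, rose by 4.67 (adjusted p = 4.21e-07), fell by 2.07 in IPC+IRI vs IRI (adjusted p = 0.00163), and differed by -0.23 in IRI+Hemin vs IRI (adjusted p = 0.713). In IPC+IRI vs IRI 8 of these targets fell and 1 rose, and in IRI+Hemin vs IRI 4 fell and 1 rose.

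**Figure D4:**
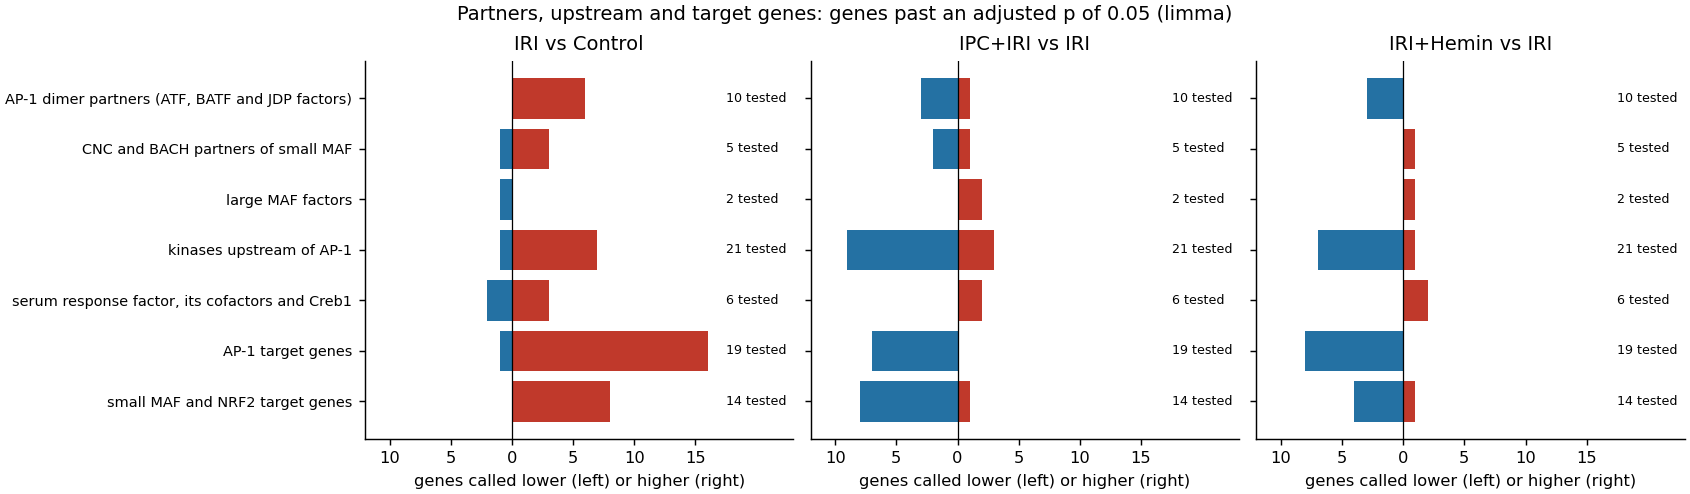
Number of tested genes called higher (to the right) and lower (to the left) for 7 gene lists around AP-1 and small MAF, with a panel for IRI vs Control and 1 for each treated group against IRI. The AP-1 target genes have 16 higher and 1 lower in IRI vs Control and none higher in the other comparisons. Some of the 19 tested in IRI vs Control may have entered through the IRI arrays alone.

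The genes most like each member over the 20 arrays were found among 14311 candidates by the root mean square difference of their centred log2 levels, as a description. Nearest to Fos was Egr1, another immediate-early gene, at 0.77, and nearest to Fosb was Hbegf at 0.74. Cdkn1a, the cell cycle inhibitor p21, was nearest to both Fosl1 (0.98) and Maff (0.64), and Atf3 was next for Maff (0.66). Arid5a lay at 0.33 from Fosl2 and Tnfaip3, an inhibitor of NF-kappaB signalling, at 0.25 from Mafk. Nearest to Jun was Ptgfr (0.34), to Junb Ccdc120 (0.35), to Jund Pde4b (0.35) and to Mafg Aig1 (0.12).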

How the data were processed

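Feature Extraction 9.5.3.1 files of 20 arrays were read. The intensity the authors deposited is Agilent's processed signal, background-subtracted by the scanner software, and their log2 value table held the log2 of the same signal (100% of single-spot values within 0.001), with 18.1% of it blank. The methods and the labels give different amounts of input RNA. Per the file headers, probes are placed on mm9.

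Outlier-flagged spots were left out (12 spots of Fos and Jun over all arrays). Spots of a probe, and probes of a gene, were averaged on the linear scale, divided by the array's 75th percentile and taken to log2. Genes well above background on at least 3 of 4 arrays of a compared group were tested with limma 3.58.1 in R 4.3.3 (lmFit and eBayes over all 5 groups, Benjamini-Hochberg over all genes tested), and the fit was tested on simulated data. The share of genes well above background was 57.4% to 67.4% per array. Exact permutation tests compared 4 with 4 arrays.

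The members and lists were chosen with earlier results of these data known. All members are named, and, of each list, genes were chosen among the called genes with the 2 largest rises and the 2 largest falls in IRI vs Control (well above background on all 8 arrays) and Atf3, Nfe2l2, Bach1 and Hmox1, with the genes most like each member. Alternatives were other background corrections, scalings, probe summaries, filters, fold cutoffs and tests, a replicate block, and leaving out each array.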

Additional observations from a re-analysis of the deposited data

Results flagged for a closer look

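Of 50 groups of 4 arrays, 10 members in 5 groups, 3 held an array whose distance from its nearest neighbour passed Dixon's 95% critical share of the group's range, and chance alone gives about 1 in 20. Fosb in Control replicate 1 was the lowest, at a log2 level of -3.99. Junb in Control replicate 2 was the lowest, at 1.81. Mafg in Hemin replicate 2 was the highest, at 1.27.

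The response to injury differed with Hemin for Fosl2, with an interaction of -1.34 on the log2 scale, and for its brighter probe alone with -1.32. For the NM_010756 probe of Mafg the interaction was 0.48 (limma, adjusted p = 0.0483), and for the gene with both probes it was 0.36 (adjusted p = 0.152).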

How the results depend on the processing

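Across all alternatives, 2644 member values were recomputed. Of these, 127 lost their call, 14 gained one and 44 that were never called changed sign. Only 2 called values reversed, both in Hemin vs Control without normalization between arrays, Fosl2 at 0.14 and Mafk at 0.11. Normexp lowered the rise of Fos, Fosb, Fosl1, Fosl2 and Maff in all 3 comparisons with Control by over 1.5-fold, and Fosb was then not called in IRI+Hemin vs Control. In IPC+IRI vs IRI without normalization 3 members were called, with Fosl2 and Mafk lost and Junb gained. Elsewhere without normalization, counts of members called were 1 in Hemin vs Control, 3 in IRI+Hemin vs IRI and 0 in IPC+IRI vs IRI+Hemin, where they had been 2, 7 and 1. The 1 in Hemin vs Control was Junb, called higher, with Fosl2 and Mafk lost. In Hemin vs Control the count was 1 with normexp, with the mean of the probes' log2 values and with the replicate block, and 0 with the deposited matrix, the fold cutoffs and SAM. In IRI+Hemin vs IRI it was 3 with the deposited matrix, 4 with the methods' t-test after Benjamini-Hochberg, 1 with SAM (Fosl2) and 5 with the replicate block, which dropped Fos and Fosb. In IPC+IRI vs IRI+Hemin it was 3 with the methods' t-test at 0.05, and 0 with that test after Benjamini-Hochberg, the fold cutoffs and SAM. The fold cutoffs gave 5 in IRI+Hemin vs Control and 0 in IPC+IRI vs IRI. They were 3-fold for higher and 2-fold for lower genes, but 4-fold for higher genes in IPC+IRI vs Control and 3-fold both ways in IPC+IRI vs IRI, so counts under them are not comparable between comparisons. SAM gave 6 in IPC+IRI vs Control, 5 in IRI+Hemin vs Control and 0 in IPC+IRI vs IRI. The interaction had 2 with the brightest probe, when Mafg was added. With each array left out, the count ran from 0 to 4 in Hemin vs Control and from 4 to 7 in IRI+Hemin vs IRI. The causes were not tested. IRI vs Control kept 8 or 9 members in every alternative run. A filter asking for all 8 arrays well above background left Fosl1 untested against Control and Hemin. Same-numbered arrays of different groups correlated from -0.378 to 0.206, over 0.1 in 6 of 40 pairs, so the numbers were not taken to pair the samples, and the replicate block changed no other count. The share of called genes that were higher in IRI vs Control was 33.5%, and 56.2% with normexp. In IRI+Hemin vs IRI it was 59.2%, and 91.3% without normalization, which moved the median of all genes from 0.08 to 0.45. It moved from 41.5% to 75.1% in IPC+IRI vs Control, from 42.4% to 77.3% in IRI+Hemin vs Control, from 51.3% to 94.7% in Hemin vs Control, from 59.6% to 90.7% in IPC+IRI vs IRI, from 34.1% to 10.4% in IRI vs Hemin and from 36.6% to 25.2% in IPC+IRI vs Hemin under that setting. Slide and scan day could not be fitted as blocks, since each group lies on 1 slide and 1 day, and SAM, the t-test and the fold cutoffs were not run on the interaction. A low signal limits Fosl1 in Control and Hemin.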
